A study of Sus scrofa with 36 samples.

Results

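The genes of the platelet-derived growth factor (PDGF) ligands and their receptors were followed across pig (Sus scrofa) fibroblasts, induced pluripotent stem cells (iPSCs) and cells differentiated from them. The members were taken from a fixed list of 6 symbols, PDGFRA, PDGFRB, PDGFA, PDGFB, PDGFC and PDGFD. Of these, 5 were read out of tables of 20683 genes, and PDGFB was not analysed here. The list was drawn up with the high level of PDGFRA on day 1 of differentiation and of PDGFRB in fibroblasts already known, so both patterns, and the step of PDGFRA from day 1 to day 2, are described below without a test. The low level of PDGFRA on day 0 belongs to the same pattern. Tests of PDGFRA in other groups against day 0 are therefore not independent of this choice.

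PDGFs are secreted dimers that bring together a pair of receptor tyrosine kinases, PDGFRα and PDGFRβ, encoded by PDGFRA and PDGFRB. Dimers of the A chain and of the C chain act chiefly through PDGFRα, and dimers of the D chain act chiefly through PDGFRβ. The C and D chains are secreted with an inhibitory CUB domain that extracellular proteases remove, whereas the A chain is cleaved inside the cell by furin-type convertases. In mouse embryos PDGFRA is expressed in early mesoderm, in somites and their mesenchymal derivatives and in precursors of oligodendrocytes, while PDGFRB is typical of fibroblasts, pericytes and vascular smooth muscle.

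RNA was sequenced in bulk from 36 libraries in 11 groups. Fibroblasts (n = 4) and several undifferentiated iPSC clones made up a set of 15. The clones were clone 1 (n = 3, labelled PiPS-EP1 minusPD c4 p11), clone 2 (n = 4, PiPS-EP5 minusPD minusA83 c12 p10) and clone 3 (n = 4, PiPS-EP5 minusPD minusA83 c18 p15). The other set held 21 libraries of clone 8, with 3 per group. Undifferentiated clone 8 cells without their mouse feeder layer (MEF) were taken on day 0. The way to somites passed through primitive streak or mesendoderm in the medium E8A100ch3 on day 1, presomitic mesoderm in S1LDN on day 2 and somite in S2LDN on day 3. Endothelial cells were taken on day 6, beating cardiomyocytes on day 9 and neural progenitors on day 24. All differentiated cells came from clone 8, so a difference that is particular to that clone cannot be told apart from a general one.

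Sequencing depth, as the sum of estimated counts, was 6877298 to 69879325 in the libraries of the set with fibroblasts and 1845333 to 9727315 in clone 8. Marker genes of the labelled cell type were high in their groups, except for somite markers on day 3 and in a pair of libraries. Somite markers summed to 24.35 to 32.46 TPM (a transcript level scaled for gene length and library size) on day 3. These sums lay above the 17.76 to 20.69 TPM of day 2 but below the 59.88 to 77.42 TPM of endothelial cells. Cardiomyocyte markers summed to 18135 and 16403 TPM in cardiomyocyte replicates 1 and 3 but to 46.9 TPM in replicate 2. They summed to 17790 TPM in neural progenitor replicate 1, against 61.5 and 147 TPM in replicates 2 and 3. Neural progenitor markers summed to 5405 TPM in cardiomyocyte replicate 2 and to 96.9 TPM in neural progenitor replicate 1. The markers of these 2 libraries thus went against their labels. All clone 8 groups shared an estimate of the spread in the model, so clone 8 tests are also given without both libraries (written "without the 2 libraries"), gene by gene for the members and as counts for the other genes. Levels of groups other than cardiomyocytes and neural progenitors do not involve them.

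Levels of the 5 genes covered a wide range and did not follow a shared pattern. The plot of levels by library shows every value, and the mean TPM of a group ran from 0 to 130.4 for PDGFRB, from 0.323 to 79.3 for PDGFRA, from 3.68 to 98.2 for PDGFA, from 1.33 to 43.5 for PDGFC and from 1.2 to 40.1 for PDGFD. The upper ends of PDGFC and PDGFD, in cardiomyocytes, were 58.2 and 59.5 TPM without the 2 libraries. In the assembly Sscrofa11.1, PDGFRA lies at chr8:40966568-41021440 and PDGFC at chr8:45579065-45808789. PDGFRB lies at chr2:151155753-151192818 and PDGFA at chr3:296399-322967. PDGFD lies at chr9:34388636-34621227 and contains the gene DDI1, whose reads may be shared with it because strandedness is not given in the sources used here. DDI1 was listed at 0 TPM in 26 of 36 libraries and at 0.55 TPM at most.

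**Figure D1:**
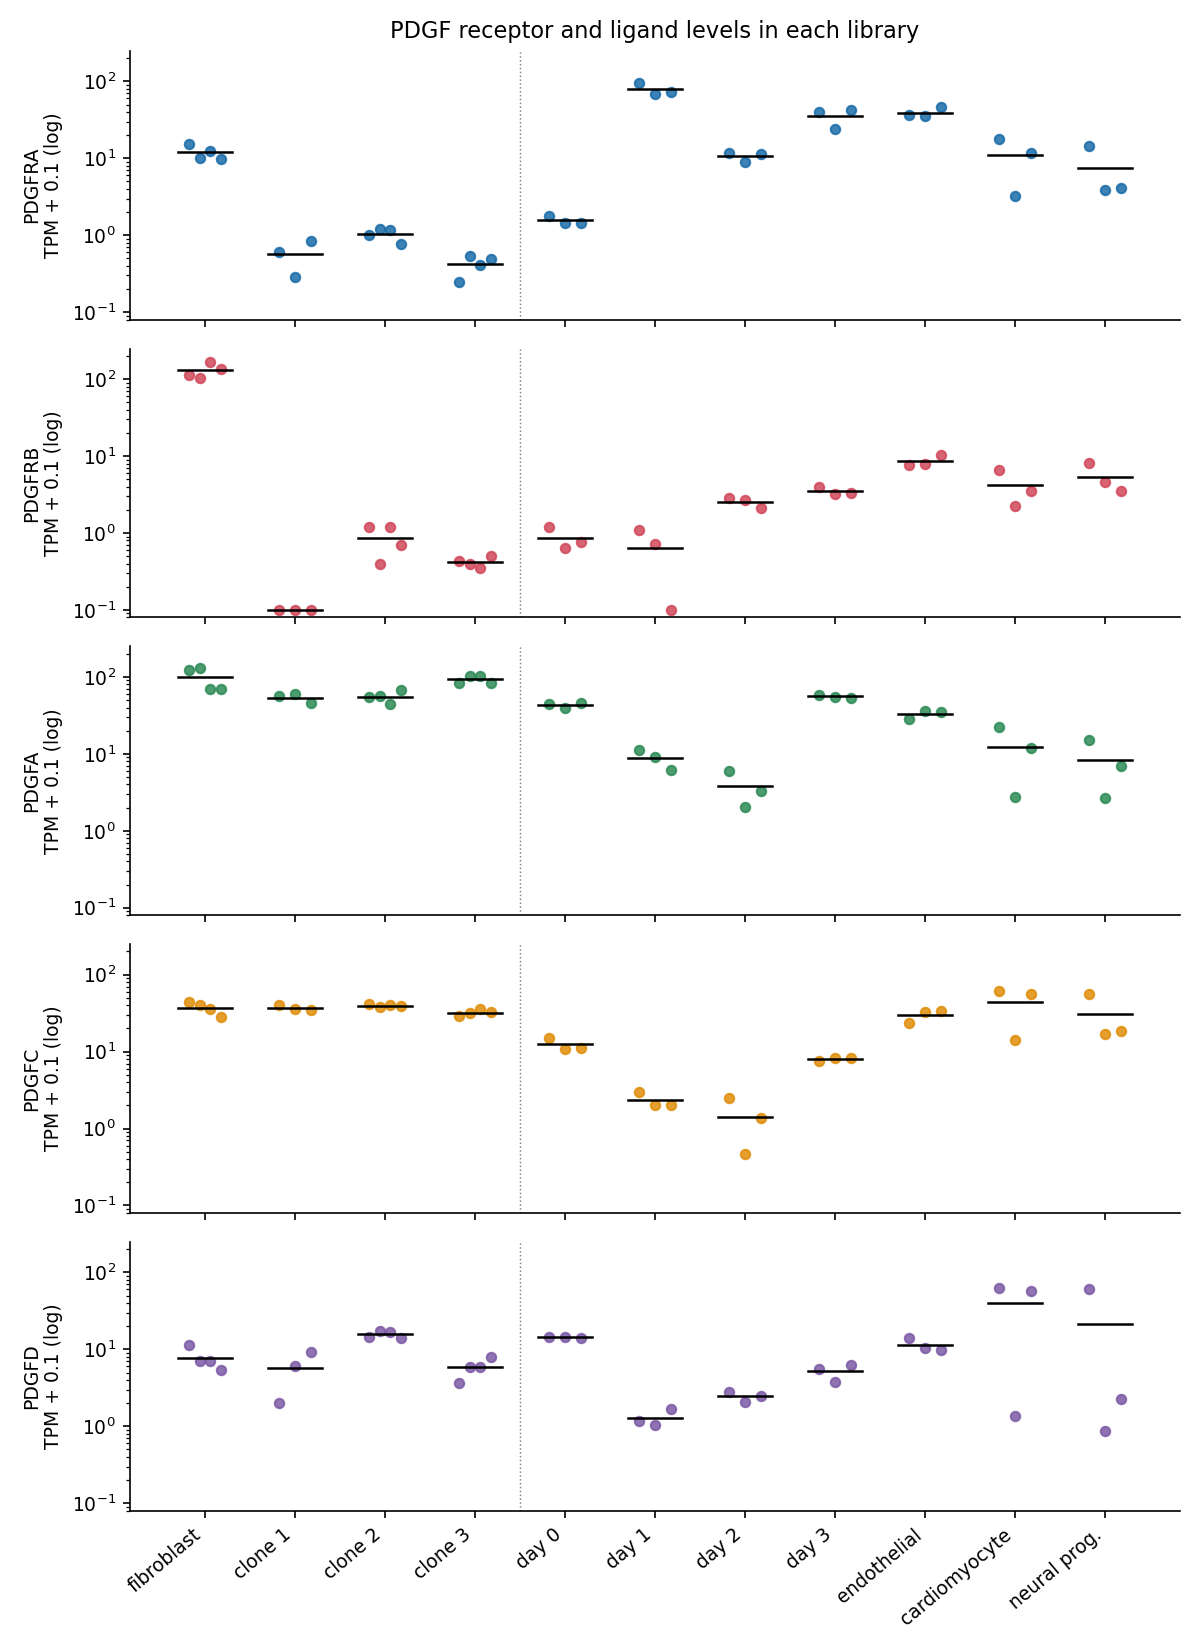
Level of each gene in each of the 36 libraries (points, TPM + 0.1 on a log axis) by group, with the group mean as a bar and a dotted line between the 2 sets. PDGFRB stood above 100 TPM in the 4 fibroblast libraries alone and at 0 in clone 1, PDGFRA peaked on day 1, and the cardiomyocyte and neural progenitor points of PDGFD fell into a high and a low cluster.

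Ordered by mean level, PDGFRA was highest on day 1, followed by endothelial cells, day 3, fibroblasts, cardiomyocytes, day 2, neural progenitors, day 0, clone 2, clone 1 and clone 3. The libraries of 6 of the 10 neighbouring pairs in this order overlapped, namely endothelial cells and day 3, fibroblasts and cardiomyocytes, cardiomyocytes and day 2, day 2 and neural progenitors, clones 2 and 1, and clones 1 and 3. PDGFRB was highest in fibroblasts, followed by endothelial cells, neural progenitors, cardiomyocytes, day 3, day 2, clone 2, day 0, day 1, clone 3 and clone 1. Its neighbours overlapped in 6 of 10 pairs, and the gap between fibroblasts and endothelial cells was free of overlap. PDGFA was highest in fibroblasts and lowest on day 2, PDGFC was highest in the libraries labelled cardiomyocyte and lowest on day 2, and PDGFD was highest in the libraries labelled cardiomyocyte and lowest on day 1. For each ligand 7 of 10 neighbouring pairs overlapped. The places of cardiomyocytes and neural progenitors in these orders depended on the libraries in doubt. Without these, PDGFRA in cardiomyocytes (14.8 TPM) came before fibroblasts (11.9 TPM), and in neural progenitors it was at 3.89 TPM in place of 7.44 TPM, with no overlap with day 2. PDGFRB in cardiomyocytes (5 TPM) then came before neural progenitors (3.95 TPM), though both still overlapped. The highest and lowest groups of each member stayed in place, and the overlapping pairs numbered 5 for PDGFRA, PDGFRB and PDGFC, 6 for PDGFA and 7 for PDGFD.

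To see how the PDGF genes differed between fibroblasts and undifferentiated iPSCs, clones 1 to 3 were set against fibroblasts. PDGFRB stood at 166.26, 135.92, 114.56 and 104.83 TPM in fibroblast replicates 1 to 4. In clone 1 it was at 0 in all 3 libraries, with 0 counts of 78804012. In clone 2 the libraries held between 0.3 and 1.1 TPM (mean 0.77 ± 0.394, SD, n = 4), and in clone 3 between 0.25 and 0.4 TPM (0.32 ± 0.0627, n = 4). The fibroblast libraries were all high and shared no value with any clone. The fibroblast mean of TPM was 169-fold that of clone 2 and 407-fold that of clone 3. Against a floor of 3 counts over the libraries of clone 1, which covers counting error only, PDGFRB in CPM (counts scaled to library size) was at least 8023-fold higher in fibroblasts.

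PDGFRA, the other receptor gene, was lower in the clones as well. Fibroblast replicates 1 to 4 held 12.45, 9.83, 15.3 and 9.96 TPM. The clone libraries held between 0.15 and 1.12 TPM, so every clone library lay below every fibroblast library. The log2 fold change of the clones was -4.63 ± 0.26 (SE, adjusted p = 3.51e-11). Among the 4 members tested here, 2 fell and none rose, where 74.6% of the 14660 genes tested passed, 35.9% as lower and 38.6% as higher. In these bulk samples fewer cells with a transcript and less transcript per cell cannot be told apart. Fibroblast markers summed to 19685 to 37473 TPM in fibroblasts and to 213 to 403 TPM in the clones, and mural markers (pericyte and smooth muscle) to 18365 to 42081 against 446 to 940 TPM, with none of the 8 fibroblast markers at 0 in a whole group. The part of these cell types in the receptor levels was not tested.

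The ligands differed less. PDGFA stood at 69.51 and 70.09 TPM in fibroblast replicates 1 and 2 and at 124.31 and 128.74 TPM in replicates 3 and 4. It stood at 53.6 ± 7.11 TPM in clone 1 (n = 3), 55.4 ± 9.95 in clone 2 and 92.8 ± 11.3 in clone 3 (n = 4 each). Clones 1 and 2 lay below all fibroblast libraries, while clone 3 lay between the fibroblast pairs. PDGFA fell in the clones by 0.75 ± 0.14 on the log2 scale (adjusted p = 0.000133). Fibroblast replicates 1 and 2 were sequenced more deeply, with at least 26120236 counts, than replicates 3 and 4, with at most 7508792. Against replicates 1 and 2 alone the change was -0.44 (adjusted p = 0.025), and against replicates 3 and 4 alone it was -0.92.

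PDGFC and PDGFD did not pass in this comparison. PDGFC stood at 37 ± 6.99 TPM in fibroblasts and at 37 ± 3.25, 39.3 ± 1.31 and 32.1 ± 2.46 TPM in clones 1, 2 and 3 (log2 fold change -0.10 ± 0.11, adjusted p = 0.383). PDGFD stood at 7.62 ± 2.62 TPM in fibroblasts and at 5.69 ± 3.67, 15.6 ± 1.69 and 5.75 ± 1.76 TPM in the clones (-0.04 ± 0.28, adjusted p = 0.914). The fibroblast libraries overlapped with all 3 clones for PDGFC and with clones 1 and 3 for PDGFD. The receptors and the ligands thus parted in the clones, whose ligand transcripts summed to 96.2 to 131 TPM in the mean of a clone and whose receptor transcripts summed to 0.477 to 1.71 TPM.

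Among the genes that process or bind PDGFs, 1 rose in the clones, 8 fell and 1 did not pass, with a median log2 fold change of -4.18 against 0.11 over all genes. Of all genes tested 74.6% passed, 38.6% as higher and 35.9% as lower, and these shares apply to each list of this paragraph. PCSK5, a convertase of the furin family, fell by 4.67 ± 0.16 on the log2 scale, from 96 ± 12.7 TPM in fibroblasts to between 2.97 and 8.8 TPM in the mean of a clone. FURIN rose by 0.87 ± 0.14. PDGFRL, which encodes a protein like the outer part of the receptors, was at 4.8 ± 2.64 TPM in fibroblasts, at 0 in clone 1 and at 0.235 and 0.04 TPM in clones 2 and 3. Of 22 genes that pass on the receptor signal, 7 rose and 12 fell (median -0.45). Among them PIK3R1, the regulatory subunit p85α of PI3-kinase that binds the phosphorylated receptors, fell by 2.68 ± 0.12, PIK3CA fell by 2.68 ± 0.16 and PIK3CB rose by 1.85 ± 0.18. Of 12 tested genes of related receptors and ligands, 4 rose and 7 fell (median -1.47), among them VEGFA, which fell by 5.91 ± 0.21.

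The clones also differed from each other. Their labels differ as well in EP1 or EP5, in minusA83 and in p10, p11 or p15, so the clone cannot be told apart from these. In a joint test of clones 1 to 3, 4 of the 5 members differed, PDGFRB (adjusted p = 0.000294), PDGFA (0.00574), PDGFD (0.021) and PDGFRA (0.0416), where 11.6% of all genes did. PDGFC did not pass (adjusted p = 0.599). PDGFRB in CPM was at least 56-fold higher in clone 2 and at least 24.1-fold higher in clone 3 than the floor of clone 1. PDGFD held 14.22, 17.31, 16.76 and 14.06 TPM in clone 2, above every library of clone 1 (1.9, 5.94 and 9.22) and clone 3 (3.6, 5.72, 5.78 and 7.91). The log2 difference of PDGFD between clones 2 and 3 was 1.27 ± 0.33. PDGFA was highest in clone 3, where its 4 libraries (82.91, 102.64, 102.62 and 83.21 TPM) lay above all libraries of the other clones.

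PDGFRA was the least firm of these differences. Clone 2 held 0.66 to 1.12 TPM against 0.19 to 0.74 in clone 1 and 0.15 to 0.44 in clone 3, so clone 2 overlapped with clone 1 and not with clone 3. Its adjusted p was 0.154 with only the clones in the model and 0.0827, 0.103, 0.1, 0.0732, 0.0958 and 0.0658 without clone 2 replicates 1, 2 and 3 and clone 3 replicates 1, 3 and 4. The adjusted p of PDGFD was 0.061 without clone 2 replicate 2 and 0.0569 without clone 2 replicate 3.

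On the way to somites PDGFRA was high on day 1, lower on day 2 and intermediate on day 3. It stood at 1.67, 1.34 and 1.36 TPM in the libraries of day 0 and at 95.58, 69.15 and 73.21 TPM on day 1. All day 1 libraries were far above all day 0 libraries, and the mean was 54.4-fold higher (log2 fold change 5.98 ± 0.76, given without a test). The markers of the primitive streak summed to 704 to 1192 TPM on day 1 against 26.3 to 35.7 TPM on day 0, and those of primitive and definitive endoderm to 227 to 486 against 22.2 to 49 TPM. Their part in the level of PDGFRA was not tested. On day 2 PDGFRA stood at 11.55, 8.97 and 11.17 TPM, below every day 1 library. The difference from day 1 was -2.89 ± 0.65 on the log2 scale, and -2.89 ± 0.18 without the 2 libraries. It is given without a test because the high level of day 1 is part of the choice of this gene. Of the other 4 members 0 passed between these days by edgeR, with 1, PDGFRB, at an unadjusted p under 0.05 and called by DESeq2, where 7.39% of 14248 genes passed, 3.45% as lower and 3.94% as higher.

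On day 3 PDGFRA was at 39.78, 24.27 and 42.56 TPM, above every day 2 library and below every day 1 library. This difference from day 2 had a log2 fold change of 1.5 ± 0.62 (adjusted p = 0.0912) and passed without the 2 libraries (1.5 ± 0.18, adjusted p = 2.78e-07). PDGFRB was low throughout. It stood at 1.08, 0.54 and 0.66 TPM on day 0 and at 0.98, 0.62 and 0 TPM on day 1, which rests on at most 25 counts in a library, and these groups overlapped (-0.37 ± 0.76, adjusted p = 0.819). Values of 2.71, 2.57 and 2.02 TPM on day 2 lay above all of day 1 (2.28 ± 0.76, adjusted p = 0.088, and 2.25 ± 0.47, 0.00104 without the 2 libraries). On day 3 PDGFRB was at 3.89, 3.08 and 3.25 TPM, above day 2 in every library, although the difference of 0.22 ± 0.71 did not pass (adjusted p = 0.857, and 0.673 without the 2 libraries).

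The ligand genes were below their day 0 levels on day 1, when PDGFRA was highest, and on day 2. PDGFA stood at 43.67, 39.8 and 45.93 TPM on day 0, at 11.25, 9.11 and 6 TPM on day 1, at 5.95, 1.91 and 3.17 TPM on day 2 and at 58.89, 55.09 and 52.69 TPM on day 3. Neighbouring days did not overlap, and day 3 lay above day 0. The difference between days 0 and 1 was -2.07 ± 0.69 on the log2 scale (adjusted p = 0.0578) and passed without the 2 libraries (-2.07 ± 0.25, 8.13e-07). The step to day 2 was -1.30 ± 0.71 (adjusted p = 0.351, and 0.0028 without the 2 libraries). From day 2 to day 3 PDGFA rose by 3.77 ± 0.75 (adjusted p = 0.00162), a 15.1-fold higher mean. Mural markers summed to 4589 to 5501 TPM on day 3 against 67.9 to 107 TPM on day 2. Of these 10 markers 4 passed as higher and none as lower, where 12.5% of all genes rose. The sums of fibroblast, cardiomyocyte, neural progenitor, endothelial and somite markers also lay above day 2 in every library. Those of pluripotent, primitive streak and presomitic markers lay below it. The part of any such cells in the level of PDGFA was not tested.

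PDGFC was likewise lowest on day 2, at lower levels than PDGFA. Its libraries held 15.11, 10.72 and 11.08 TPM on day 0, 2.9, 1.91 and 1.9 TPM on day 1, 2.38, 0.36 and 1.25 TPM on day 2 and 7.41, 8.04 and 8.22 TPM on day 3. Days 1 and 2 overlapped, and day 3 lay below day 0. On day 1 PDGFC fell by 2.29 ± 0.69 (adjusted p = 0.0375, and 6.56e-07 without the 2 libraries). It was the member of 4 tested that passed on day 1, where 7.16% of genes fell and 5.53% rose. Leaving out any single library of day 0 or day 1 gave adjusted p-values of 0.0748 to 0.132. The step to day 2 did not pass (-0.72 ± 0.73, adjusted p = 0.698, and -0.72 ± 0.35, 0.147 without the 2 libraries).

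From day 2 to day 3 PDGFC rose by 2.33 ± 0.72 (adjusted p = 0.0276, and 2.71e-06 without the 2 libraries). It lost the call without day 2 replicate 2 (0.116), day 2 replicate 3 (0.094) or day 3 replicate 1 (0.0522), 2 (0.0654) or 3 (0.0579). With PDGFA it made 2 of 5 members higher on day 3, where 12.5% of genes rose. Without the 2 libraries 4 of 5 members passed this step, where 48.4% of 14485 genes did in either direction.

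PDGFD was nearly even across the libraries of day 0, at 14.18, 14.3 and 14.15 TPM. It was at 1.06, 0.95 and 1.58 TPM on day 1, at 2.71, 1.98 and 2.4 TPM on day 2 and at 5.42, 3.64 and 6.12 TPM on day 3. No neighbouring days overlapped, and day 1 was the lowest. With all libraries in the model the step to day 1 was -3.31 ± 1.32 (adjusted p = 0.117), and without the 2 libraries it was -3.32 ± 0.26 (5.68e-10). The later steps of 0.95 ± 1.29 (adjusted p = 0.793) and 0.86 ± 1.24 (0.66) passed without the 2 libraries, at 0.97 ± 0.29 (0.0164) and 0.85 ± 0.26 (0.00838).

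**Figure D2:**
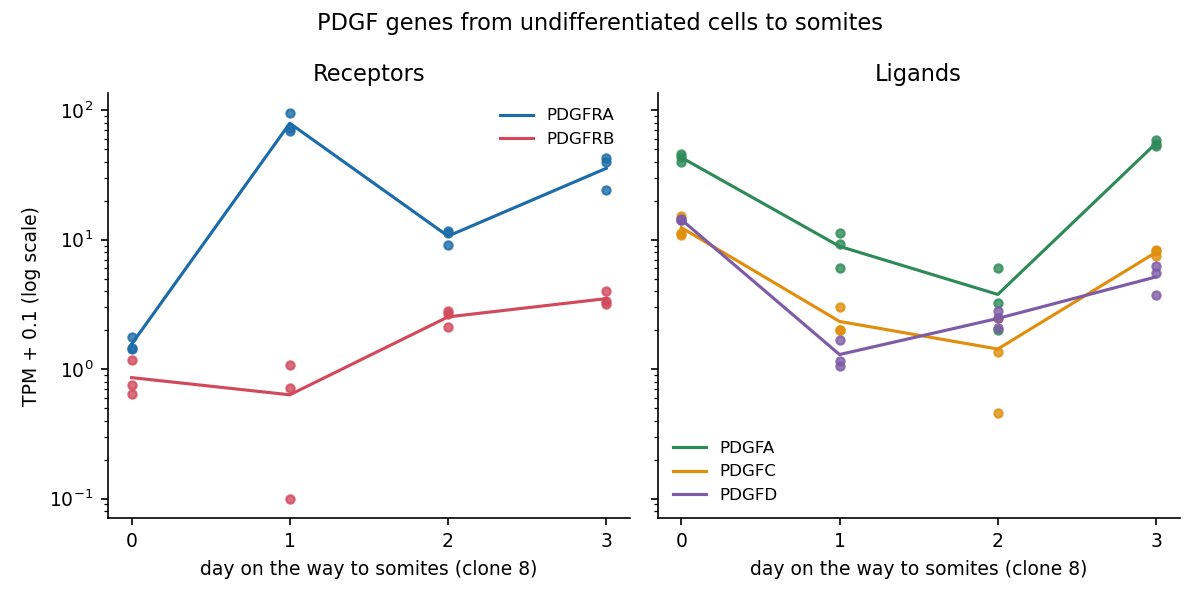
Levels of the receptor genes (left) and ligand genes (right) in the 3 libraries of each day of clone 8 on the way to somites (points), with lines through the group means, as TPM + 0.1 on a log axis. PDGFRA reached a mean of 79.3 TPM on day 1 while PDGFA, PDGFC and PDGFD were at 8.79, 2.24 and 1.2 TPM, and PDGFA was at 55.6 TPM on day 3.

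The summed TPM of PDGFA, PDGFC and PDGFD was 69.6 ± 4.28 on day 0, 12.2 ± 2.87 on day 1, 7.37 ± 3.43 on day 2 and 68.5 ± 2.79 on day 3 (n = 3 each). The summed TPM of both receptors was 2.22 ± 0.467, 79.8 ± 14.6, 13 ± 1.37 and 38.9 ± 10.1 on the same days. Receptor transcripts were thus lowest on day 0 and highest on day 1, and ligand transcripts were near their day 0 level again on day 3. As PDGFRA made up 99.4% of the receptor sum on day 1, the receptor part restates the pattern by which that gene was chosen.

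Several genes of PDGF processing and signalling also moved on these days. On day 1, 2 of 10 genes that process or bind PDGFs rose, and none fell (median -0.83, against -0.02 over all genes). NRP1, a co-receptor known best from VEGF signalling, rose by 4.44 ± 0.32 to 77.4 ± 27.3 TPM, and PLAT, the gene of the tissue plasminogen activator that can cleave PDGF-C, rose by 1.69 ± 0.43. Of 22 genes that pass on the receptor signal, 5 rose and 2 fell on day 1 (median 0.26), with PIK3CB at 1.38 ± 0.21, PIK3R1 at 1.27 ± 0.19 whereas the adaptor protein gene NCK2 fell by 1.45 ± 0.17. On day 2 PLAU, the gene of urokinase, which can cleave PDGF-D, rose by 4.71 ± 0.83 and PCSK5 by 2.27 ± 0.29, whereas NRP1 fell by 2.07 ± 0.29. These made 2 of 10 higher and 1 lower (median -0.47, against 0 over all genes), and in the signalling list 0 of 22 rose and 1 fell, PIK3CB, by 1.14 ± 0.21. On day 3 PLAU rose by a further 2.42 ± 0.70 to 123.1 ± 22.8 TPM. It was among 3 of 10 genes that rose, and 1 fell, PCSK5, by 2.46 ± 0.29 (median 1.22, against 0.05 over all genes). A2M, the gene of a protease inhibitor that binds PDGF, was at 0 on day 2 and at 1.08 ± 0.206 TPM on day 3. Of the signalling list 5 rose and none fell, with GAB1 at 1.94 ± 0.52 and NCK2 at 1.60 ± 0.17. The list of processing genes had, without the 2 libraries, 3 higher and 3 lower on day 1, 3 and 1 on day 2 and 7 and 1 on day 3. The signalling list then had 10 higher and 6 lower on day 1, 1 and 5 on day 2 and 8 and 3 on day 3. Over all genes 37.4, 23.9 and 48.4% passed in either direction on these days in that model, and 12.7, 7.39 and 23.7% did with all libraries.

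In endothelial cells both receptor genes were higher than on day 0. PDGFRA stood at 35.94, 35.03 and 45.83 TPM and rose by 4.77 ± 0.72 (adjusted p = 0.000185, and 3.68e-14 without the 2 libraries). PDGFRB stood at 7.55, 7.69 and 10.16 TPM and rose by 3.51 ± 0.77 (adjusted p = 0.00398, and 5.27e-07). No endothelial library overlapped with day 0 for either gene. The 2 of 5 members that rose compare with 11.6% of all genes that rose, and none fell, where 7.76% did. Because the day 0 level is part of the choice of PDGFRA, its place in this count is not independent support. Fibroblast PDGFRB was 15.4-fold the endothelial mean, and endothelial PDGFRA was 3.28-fold the fibroblast mean, which are levels across sets without a test.

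The ligands in endothelial cells did not pass against day 0 with all libraries. PDGFC stood at 23.63, 32.16 and 33.39 TPM, above every day 0 library (1.30 ± 0.65, adjusted p = 0.18), and passed without the 2 libraries (1.31 ± 0.23, 7.07e-05). PDGFA stood at 28.14, 35.7 and 34.52 TPM (-0.38 ± 0.65, adjusted p = 0.749, and 0.208 without the 2 libraries). PDGFD stood at 13.92, 10.36 and 9.79 TPM (-0.30 ± 1.17, adjusted p = 0.897, and 0.231 without the 2 libraries). All endothelial libraries of PDGFA and PDGFD lay below those of day 0.

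Endothelial markers summed to 520 to 604 TPM in these libraries and to at most 20.6 TPM in all others. Fibroblast markers summed to 915 to 1354 TPM, against 311 to 481 TPM on day 0, and mural markers to 112 to 158 against 240 to 292 TPM. While the mural sum was lower, 3 of the 10 mural markers passed as higher and none as lower (median 0.66), and 3 and 2 did without the 2 libraries. The part of such cells in the receptor levels was not tested. In the list of processing genes 3 rose and none fell (median 0.35, against 0.03 over all genes), among them A2M, at 20.2 ± 1.75 TPM against 0.157 ± 0.0924 on day 0 (6.95 ± 0.71), and NRP1 (2.75 ± 0.30). In the signalling list 4 rose and 1 fell, with GAB1 at 1.67 ± 0.52, PIK3R1 at 1.26 ± 0.19 and NCK2 at -1.32 ± 0.17. Over all genes 19.3% passed with all libraries, 11.6% as higher and 7.76% as lower. Among the 10 processing genes 5 were, without the 2 libraries, higher and 2 lower, and 8 of the 22 signalling genes were higher and 4 lower, where 45.1% of all genes passed in either direction.

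Against the mean of the cardiomyocyte and neural progenitor groups, 2 of 5 members were higher in endothelial cells, where 33.2% of all genes passed, 17.4% as higher and 15.8% as lower. PDGFRA was 1.88 ± 0.51 higher on the log2 scale (adjusted p = 0.00909, and 2.40 ± 0.17, 9.94e-11 without the 2 libraries). Its endothelial libraries lay above all 6 others, the highest of which was 17.94 TPM. PDGFA was 1.49 ± 0.56 higher (adjusted p = 0.0489), with every endothelial library above the 6 others. This call was lost with RLE scaling (0.0531), without a filter (0.0512) and with only these groups in the model (0.254), and it was 2.09 ± 0.26 (6.81e-07) without the 2 libraries. The call of PDGFA was also lost without endothelial replicate 1 (0.0768), 2 (0.134) or 3 (0.124), cardiomyocyte replicate 3 (0.0595) or neural progenitor replicate 2 (0.0783) or 3 (0.096). With only these groups PDGFRA had an adjusted p of 0.134. PDGFRB (0.72 ± 0.59, adjusted p = 0.36) passed without the 2 libraries (0.95 ± 0.35, 0.0261). PDGFC (-0.48 ± 0.56, 0.538) and PDGFD (-1.72 ± 1.10, 0.24) did not pass either way, and PDGFD had a value of 0.46 ± 0.25 without the 2 libraries.

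In the libraries labelled cardiomyocyte the ligand gene PDGFC was among the members that rose. PDGFC stood at 60.57, 14.17 and 55.84 TPM in replicates 1 to 3, the low value being that of the library with neural markers. It rose by 2.15 ± 0.66 against day 0 (adjusted p = 0.016, and 2.62 ± 0.25, 6.07e-09 without the 2 libraries). PDGFC lost the call with only these groups in the model (0.0571), and without day 0 replicate 2 (0.0633) or 3 (0.0627) or cardiomyocyte replicate 1 (0.0571) or 3 (0.0642).

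PDGFRA stood at 17.94, 3.15 and 11.64 TPM and rose by 3.25 ± 0.68 (adjusted p = 0.00119, and 3.73 ± 0.22, 1.84e-12). PDGFRB stood at 6.53, 2.15 and 3.46 TPM and rose by 2.70 ± 0.76 (0.00899, and 3.08 ± 0.46, 4.32e-06). All 3 libraries exceeded day 0 for both receptor genes, and also replicate 2 was above it. Among the 5 members 3 rose and none fell, where 41.7% of genes passed, 22.9% as higher and 18.8% as lower. PDGFRA, chosen with its low day 0 level known, is one of those that rose.

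The other ligands were split by the library in doubt. PDGFD stood at 62.02, 1.28 and 56.94 TPM (1.90 ± 1.2, adjusted p = 0.214) and was higher than on day 0 without the 2 libraries (2.48 ± 0.22, 2.07e-09). Its levels in replicates 1 and 3 were above those of every other group apart from neural progenitor replicate 1. PDGFA stood at 22.52, 2.67 and 11.7 TPM, below every day 0 library (-1.48 ± 0.67, adjusted p = 0.0868, and -0.98 ± 0.28, 0.00382 without the 2 libraries). Its adjusted p was 0.0325 without cardiomyocyte replicate 1.

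In the libraries labelled neural progenitor, both receptor genes passed as higher than on day 0 and PDGFA as lower. PDGFRA stood at 14.54, 3.73 and 4.05 TPM in replicates 1 to 3, all above day 0, with replicate 1, which holds cardiomyocyte markers, the highest. It rose by 2.52 ± 0.66 (adjusted p = 0.0062), and by 1.01 ± 0.27 (0.00241) without the 2 libraries. Without neural progenitor replicate 1 alone the value was 0.95 (adjusted p = 0.157), and with only these groups the adjusted p was 0.0662. PDGFRB stood at 8.04, 4.44 and 3.46 TPM and rose by 2.87 ± 0.76 (0.0063, and 2.04 ± 0.49, 0.00104). Markers of oligodendrocyte precursors, which express PDGFRA, summed to 0, 6.96 and 10.9 TPM in replicates 1, 2 and 3.

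PDGFA stood at 14.9, 2.6 and 6.87 TPM and fell by 2.24 ± 0.70 (adjusted p = 0.0164), and by 3.94 ± 0.39 (7.34e-09) without the 2 libraries. The call was lost with only these groups in the model (0.0838) and without neural progenitor replicate 2 (0.0513) or 3 (0.0585). Among the 5 members 2 rose and 1 fell, where 42.7% of genes passed, 23.8% as higher and 19% as lower. Those that rose include PDGFRA, chosen with its low day 0 level known. PDGFC stood at 56.31, 17.07 and 18.33 TPM (1.42 ± 0.65, adjusted p = 0.0877) and did not pass without the 2 libraries (0.10 ± 0.28, 0.775). Its adjusted p was 0.0438 without neural progenitor replicate 2.

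PDGFD depended on a single library. It stood at 60.56, 0.77 and 2.17 TPM in neural progenitor replicates 1 to 3, so replicate 1 lay above and the others below the 14.2 ± 0.0794 TPM of day 0. With all libraries the log2 fold change was 0.93 ± 1.17 (adjusted p = 0.542). Without the 2 libraries it was -4.02 ± 0.36 (1.66e-09), and without neural progenitor replicate 1 alone it was -3.97 (0.00767). The counts behind the low values were 9 and 7.

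Between cardiomyocytes and neural progenitors as labelled, 0 of 5 members and 0 of 14248 genes (0%) passed by edgeR. At an unadjusted p under 0.05 were 753 genes, no member among them. DESeq2 called 0 of the 14047 genes to which it gave an adjusted p, and PDGFD was not among these. The libraries of the labels overlapped for every member, and in the plot against cardiomyocyte markers 1 library of each label sits among those of the other. Without the 2 libraries PDGFD was 6.50 ± 0.37 higher in cardiomyocytes on the log2 scale (adjusted p = 9.44e-13), at a mean of 59.5 against 1.47 TPM. PDGFA was 2.96 ± 0.41 higher (1.84e-06), PDGFRA 2.72 ± 0.26 (5.55e-09) and PDGFC 2.52 ± 0.30 (1.84e-07). PDGFRB did not pass (1.05 ± 0.49, 0.0648). These 4 of 5 members compare with 63.7% of 14485 genes. Each of these arms then held 2 libraries.

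**Figure D3:**
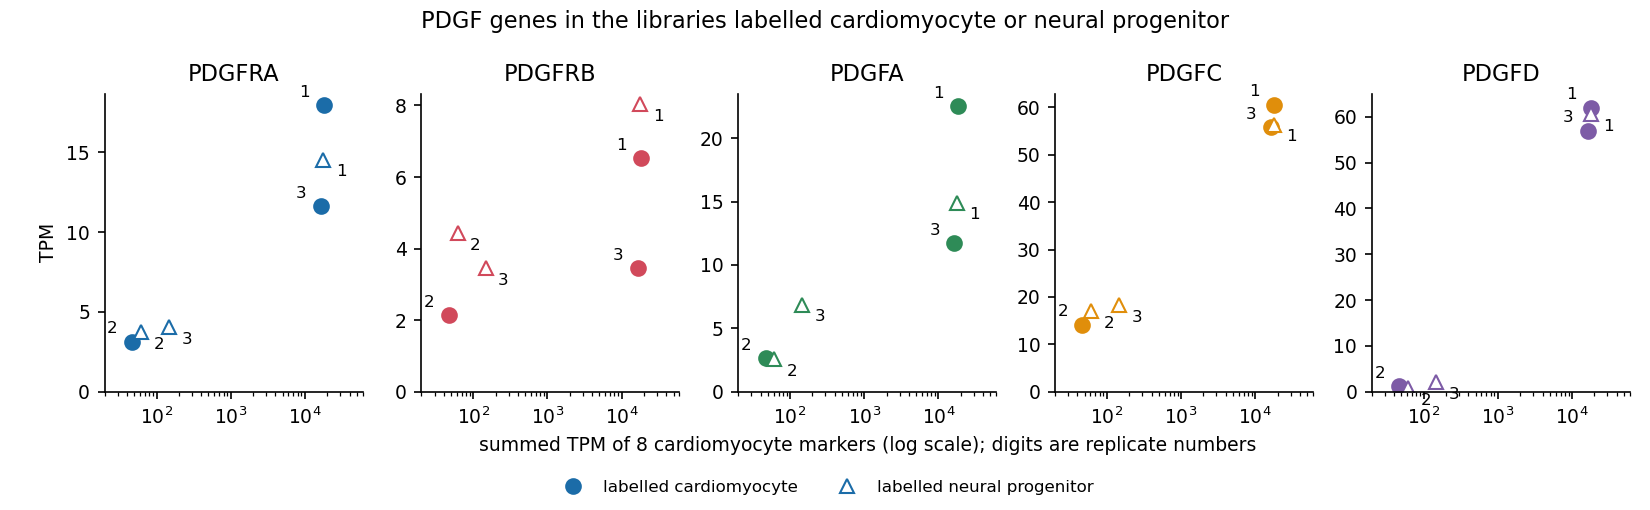
TPM of each gene (vertical axis, from 0) against the summed TPM of 8 cardiomyocyte markers (log axis) in the 6 libraries labelled cardiomyocyte (filled circles) or neural progenitor (open triangles), with the replicate number beside each. Neural progenitor replicate 1 sits with cardiomyocyte replicates 1 and 3 and cardiomyocyte replicate 2 with neural progenitor replicates 2 and 3, and PDGFD spans 0.77 to 62.02 TPM between these clusters.

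**Figure D4:**
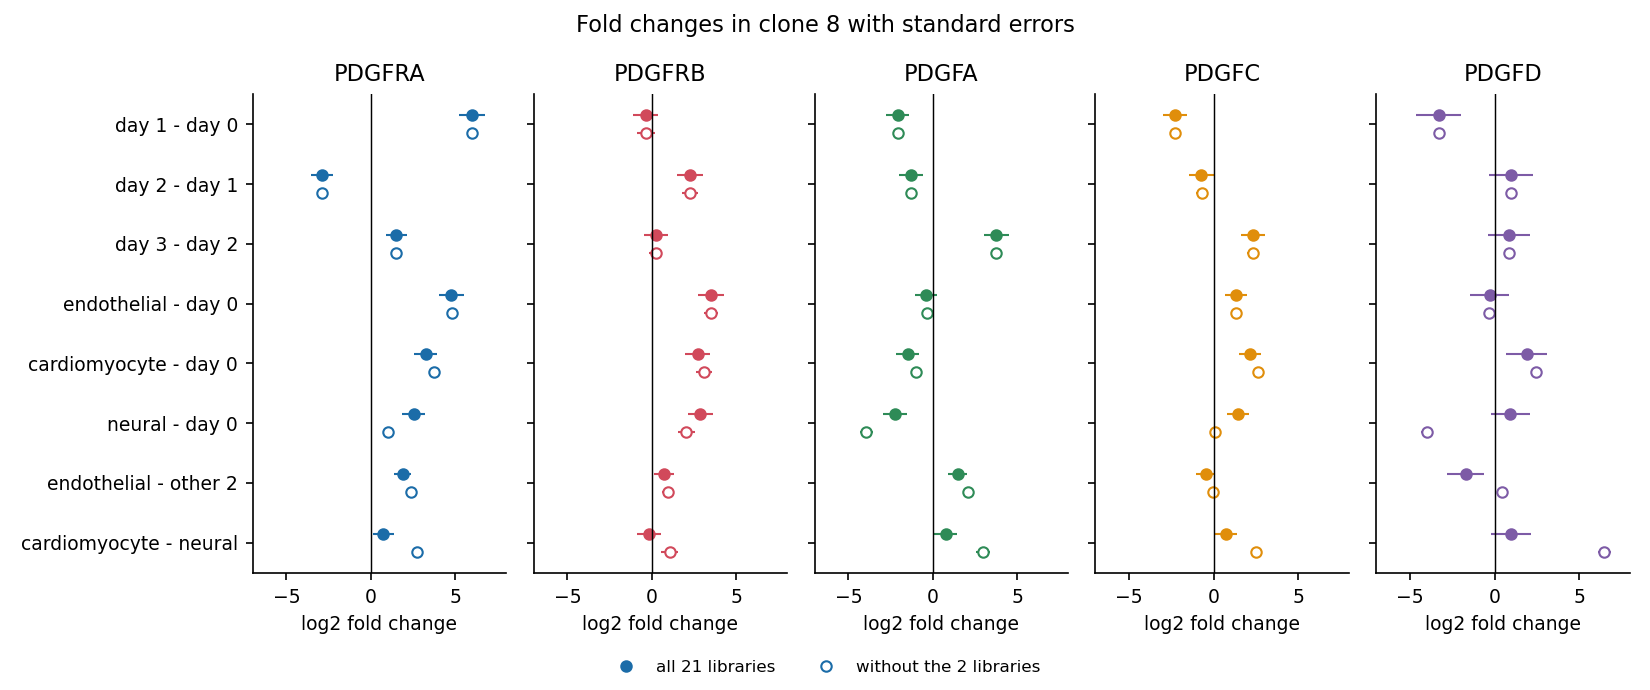
Log2 fold changes (points) with standard errors (bars) of each gene in the comparisons of clone 8, with all 21 libraries (filled) and without cardiomyocyte replicate 2 and neural progenitor replicate 1 (open); the values of PDGFRA between days 1 and 0 and between days 2 and 1 are descriptions without a test. On the way to somites and in endothelial cells against day 0 both values nearly coincide with a narrower bar without the 2 libraries, and PDGFD in neural progenitors goes from 0.93 to -4.02.

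Of the genes that process or bind PDGFs, 2 rose and 2 fell in each of these groups against day 0 (median -0.03 in cardiomyocytes and -0.17 in neural progenitors, against 0.20 over all genes for both). NRP1 rose by 3.23 ± 0.30 and 3.09 ± 0.30 and A2M by 4.42 ± 0.66 and 3.81 ± 0.65. In neural progenitors FURIN fell by 2.53 ± 0.46, and in cardiomyocytes PCSK6 fell by 4.10 ± 0.88. In the signalling list 4 rose and 2 fell in cardiomyocytes, and 5 rose and 4 fell in neural progenitors, with PIK3R1 at 2.33 ± 0.20 and 2.48 ± 0.20. Without the 2 libraries the processing genes had 5 higher and 4 lower in cardiomyocytes and 2 and 5 in neural progenitors, and the signalling genes 6 and 7, and 7 and 8. The share of all genes that then passed was 61.7% in cardiomyocytes and 63.8% in neural progenitors, against 41.7% and 42.7% with all libraries. The processing and signalling genes named by a fixed rule had passed with the largest changes in these groups. Of these, 12 of 12 kept direction and call without the 2 libraries. PCSK6 was then at -3.56 ± 0.75 in cardiomyocytes, FURIN at -3.24 ± 0.33 in neural progenitors and PIK3R1 at 2.46 ± 0.17 and 2.28 ± 0.17. On the days to somites and in endothelial cells 19 of 19 such genes kept both. The 2 libraries are on neither side of those comparisons, so the direction there could hardly change. All of these genes were picked for passing, so neither count is an independent check.

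The make-up of the receptor and ligand transcripts differed between groups. PDGFRA made up 8.54 ± 2.33% of the summed receptor TPM in fibroblasts, with a range of 6.74 to 11.8% over the 4 libraries. It made up 66.4 ± 5.33% on day 0, 99.4 ± 0.553% on day 1, 81.1 ± 3.48% on day 2, 90.9 ± 2.09% on day 3 and 82.2 ± 0.418% in endothelial cells (n = 3 each). Fibroblasts were the group in which PDGFRB was the larger part in every library. The shares of fibroblasts, day 0 and day 1 rest on the levels known when the list was drawn up, so they are descriptions and not independent results. In the clones the share rested on receptor sums of at most 2.15 TPM in a library and was 100% in clone 1, 56.6 ± 15.2% in clone 2 and 48.9 ± 12.4% in clone 3.

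PDGFA made up 68 ± 4.46% of the summed ligand TPM in fibroblasts, 49.9 to 71% in the mean of clones 1 to 3, 61.9 ± 2.39% on day 0 and 81.1 ± 2.15% on day 3. In endothelial cells PDGFA and PDGFC had near equal shares of 44.3 ± 1.41% and 40 ± 3.63%. In the cardiomyocyte and neural progenitor groups PDGFA made up 13.2 ± 3.33% and 16.4 ± 7.59%. PDGFC made up 54.9 ± 20.2% and 64.4 ± 20.5%, and PDGFD ranged from 7.06 to 45.7% and from 3.77 to 46% between libraries of the same label. The mean share of PDGFC in cardiomyocytes rested on replicate 2, where it was 78.2%. In cardiomyocyte replicates 1 and 3 PDGFD, at 42.7 and 45.7%, was slightly above PDGFC, at 41.7 and 44.9%. Without the 2 libraries the neural progenitor means were 75.2% for PDGFC and 5.85% for PDGFD, and PDGFRA made up 75.2% of the receptor sum in cardiomyocytes and 49.8% in neural progenitors.

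**Figure D5:**
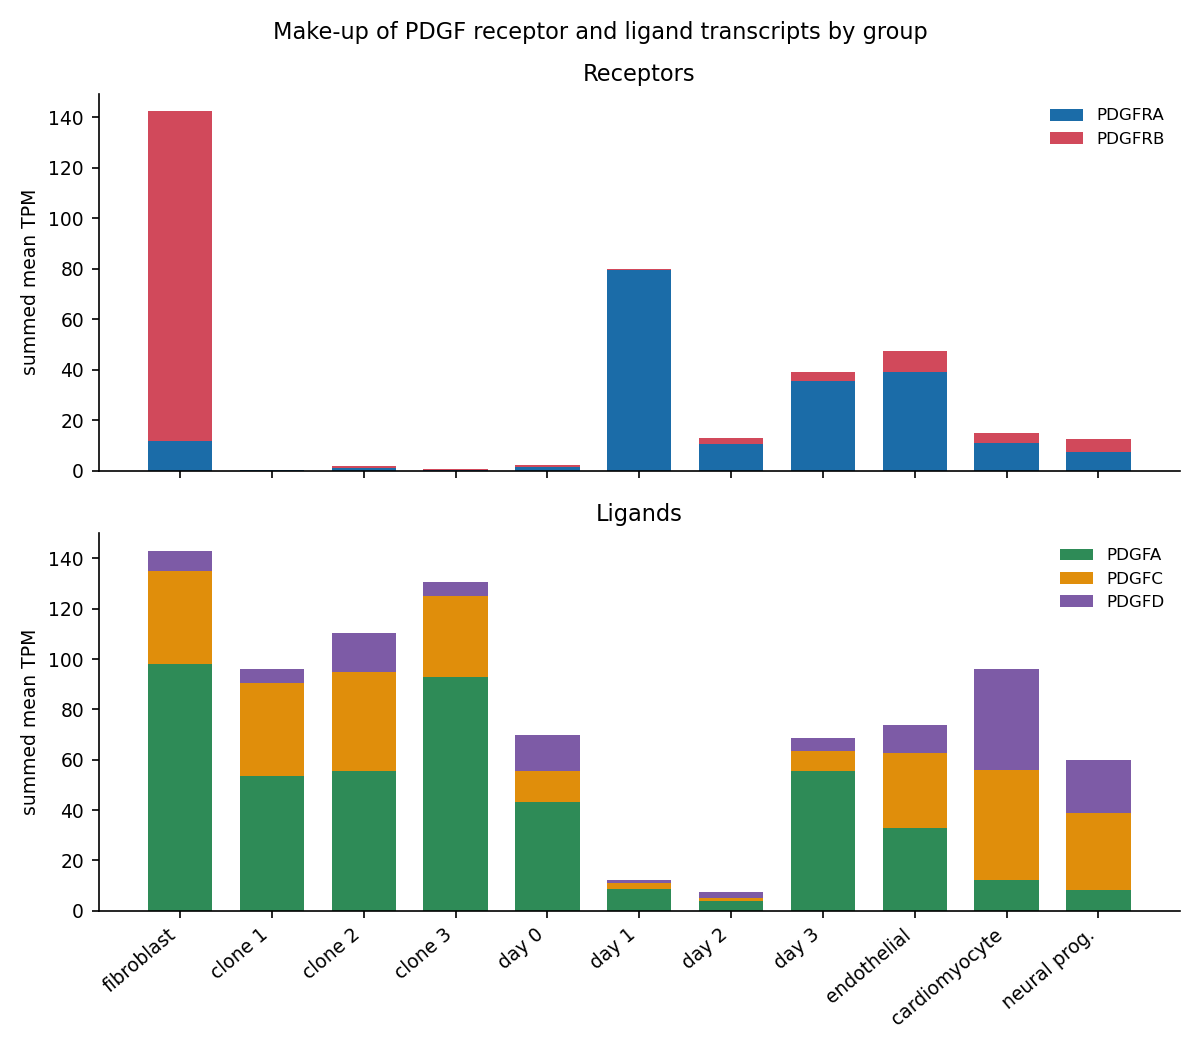
Mean TPM of the receptor genes (top) and ligand genes (bottom) stacked by group, on linear axes from 0; error bars are left out because the SDs stand in the text. The receptor bar of fibroblasts is mostly PDGFRB, that of day 1 nearly all PDGFRA at 79.3 TPM, and the ligand bars of days 1 and 2 are the lowest at 12.2 and 7.37 TPM.

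The genes whose group means were most like PDGFRA were ZBTB1 (Pearson r = 0.97), CCDC90B (0.892), TWSG1 (0.889), FNIP1 (0.889) and NRP1 (0.889). Those most like PDGFRB were SDC2 (0.987), DIAPH2 (0.987), IDUA (0.985), EMILIN1 (0.983) and BGN (0.982). These values are across the 11 group means of log2(TPM + 1), which share libraries and depth, and they are the highest among 10657 genes. Without day 1 the values for PDGFRA were 0.86 to 0.96, and without fibroblasts those for PDGFRB were 0.934 to 0.975. Of these 5 genes each, 3 were again among the 5 most like PDGFRA without the 2 libraries, and 4 among those most like PDGFRB. With log2(TPM + 0.1) in place of log2(TPM + 1) the numbers were 5 and 3. Pearson r does not measure the size of a change. The mean of ZBTB1 ran only from 14.3 TPM in clone 3 to 33.65 TPM on day 1. ZBTB1, CCDC90B and NRP1 were highest on day 1, but TWSG1 and FNIP1 were highest on day 3, at 54.6 and 25.3 TPM.

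PDGFRA, KIT and KDR lie in this order on chromosome 8 of Sscrofa11.1. KIT, the receptor of stem cell factor, belongs to the same receptor class as PDGFRA, and KDR is a receptor of VEGF. KDR stood at 3.07 ± 1.14 TPM on day 0 and rose by 5.52 ± 0.65 on the log2 scale to 122.4 ± 35.1 TPM on day 1 (adjusted p = 2.94e-05). It fell on day 2 by 2.34 ± 0.56 to 24 ± 7.12 TPM, and on day 3 by 2.22 ± 0.56 to 6.04 ± 1.89 TPM, a day on which PDGFRA stood above its day 2 level. KIT between them stood at 48.6 ± 1.26 TPM on day 0 and 59.9 ± 10.5 TPM on day 1 (0.51 ± 0.80, adjusted p = 0.749, and 0.51 ± 0.14, 0.00621 without the 2 libraries). On day 2 KIT was at 19.9 ± 4.31 TPM (-1.59, adjusted p = 0.316, and -1.59 ± 0.15, 1.85e-08 without the 2 libraries). It was at 15 ± 0.968 TPM on day 3 (-0.62, adjusted p = 0.62, and -0.63 ± 0.15, 0.00158). The steps of KDR were 5.52 ± 0.25, -2.34 ± 0.21 and -2.21 ± 0.23 without the 2 libraries, and each passed. In endothelial cells KDR was at 139.6 ± 11.3 TPM and PDGFRA at 38.9 ± 5.99 TPM, and in fibroblasts KDR was at 0.188 ± 0.26 TPM and PDGFRA at 11.9 ± 2.58 TPM. Of 11 tested genes of the receptor class of PDGFRs and of the VEGF family, 1 rose and 2 fell on day 1, 2 rose and 2 fell on day 2, 2 rose and 3 fell on day 3, and 4 rose and none fell in endothelial cells against day 0. In cardiomyocytes 1 rose and 4 fell, and in neural progenitors 1 rose and 5 fell. These counts were, without the 2 libraries, 2 and 4, 3 and 4, 4 and 4, 5 and 2, 1 and 7, and 1 and 5. Over all genes 12.7, 7.39, 23.7, 19.3, 41.7 and 42.7% passed in either direction in these comparisons, in the same order. The shares without the 2 libraries were 37.4, 23.9, 48.4, 45.1, 61.7 and 63.8%. PDGFRB lies beside CSF1R, another gene of its receptor class, which was at 0 in clones 1 to 3 and at 0.155 ± 0.137 TPM in fibroblasts.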

How the data were processed

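Expected counts, in which RSEM divides ambiguous reads among genes by estimation, and TPM were deposited by the authors for every library. The submitters' processing notes list RSEM 1.2.3, Bowtie 1.2.3 and bcl2fastq and the genome build Sscrofa11.1. Per the labels' protocols, libraries were made by ligation-mediated sequencing.

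Expected counts were rounded and tested in R 4.3.3 with edgeR 4.0.16 (quasi-likelihood test, TMM scaling, filterByExpr with a minimum count of 10). A model was fitted over 15 libraries and 14660 genes (fibroblasts and clones 1 to 3) and another over 21 libraries and 14248 genes (clone 8). P-values were adjusted over the whole table of a model by Benjamini-Hochberg, and a gene passed under 0.05. SEs are the log2 fold change divided by the square root of F. TPM levels are means ± SD and entered no test. The code was checked on simulated counts. Alternatives were DESeq2 1.42.0, RLE scaling, no filter, only the groups compared, the replicate number as a block and leaving out libraries.

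The members, gene lists and the libraries to leave out were chosen with earlier results of these data known. Named beside the members are, per list and comparison, up to 2 passing genes that changed most in the direction most took and 1 of the opposite direction, and the 5 genes most like each receptor gene. Further values of genes already named were chosen after their values were seen. Whether the replicates are separate cultures is not given in the labels, so the p-values rest on a spread that may be technical. No 2 of the 42 pairs of libraries within a group were identical. Coordinates are RefSeq's on Sscrofa11.1.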

Additional observations from a re-analysis of the deposited data

Results flagged for a closer look

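In a joint test the 3 undifferentiated clones differed in 4 of the 5 genes, with adjusted p-values of 0.000294 for PDGFRB, 0.00574 for PDGFA, 0.021 for PDGFD and 0.0416 for PDGFRA, where 11.6% of all genes differed. PDGFRB was at 0 in all libraries of clone 1 and present in all 8 libraries of clones 2 and 3. The clone cannot be told apart here from the other parts of the labels, which differ between the clones too. In the 15 combinations of a gene and a group of 4 libraries, no library stood far from the other 3.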

How the results depend on the processing

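The 292 recomputed tests of a member under an alternative other than leaving out a single library kept direction and call in 249 cases, lost a call in 9, gained a call in 28 and turned direction in 6. Of 385 tests with a single library left out 338 kept both, 32 lost a call, 6 gained a call and 9 turned. The turns past the threshold were of PDGFD in neural progenitors against day 0, at -4.02 without the 2 libraries and from -3.97 to 1.49 over the fits that left out 1 library, against 0.93. The other turns passed on neither side. PDGFD in endothelial cells against the other lineages was 0.46 without the 2 libraries (-1.72 with them) and PDGFRB between cardiomyocytes and neural progenitors 1.05 (-0.17 with them). For clones against fibroblasts, PDGFC was 0.040 and PDGFD 0.17 with fibroblast replicates 1 and 2 alone, and PDGFD was 0.040 with no filter. Leaving out 1 library gave -0.21 to 0.16 for that value of PDGFD, -1.05 to 0.20 for PDGFRB on day 1, -0.72 to 0.22 for PDGFC and -2.05 to 0.73 for PDGFD in endothelial cells against the other lineages, and -0.69 to 0.71 for PDGFRB between the latter.

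Without the 2 libraries, genes called numbered 5415 on day 1, 3460 on day 2, 7011 on day 3, 6532 in endothelial cells against day 0, 8934 in cardiomyocytes, 9236 in neural progenitors, 7162 in endothelial cells against the other lineages and 9226 between the latter, against 1808, 1053, 3374, 2752, 5940, 6087, 4737 and 0. Members called were then 3 on day 1, 3 on day 2, 4 on day 3, 5 in cardiomyocytes and 4 between cardiomyocytes and neural progenitors, against 1, 0, 2, 3 and 0. With only the groups compared, 3345 genes differed among clones (3004 by DESeq2, against 1704), and the calls were 4752, 2165, 6421, 7704, 3764, 3476 and 1832 in the first 7 of these comparisons. Members called were then 3, 2 and 4 on days 1, 2 and 3, 4 in endothelial cells, 1 in neural progenitors and 0 in endothelial cells against the other lineages. In the last comparison it was 1 with RLE scaling and 1 with no filter. DESeq2 called 1695 genes on day 2 and 2 members on day 1 and 1 on day 2, and gave no adjusted p for PDGFD in clone 8. The cause of these differences was not tested.

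To look for pairing, the mean of its group was subtracted from the log CPM of each gene in each library. The remainders of same-numbered libraries of different groups correlated at -0.12 to 0.0759 (median -0.0033) in the set with fibroblasts. In clone 8 these remainders correlated at -0.74 to 0.871 (median 0.0098, against -0.0053 for other pairs), with 12 of 63 pairs over 0.1. The clone 8 pairs include the libraries whose markers went against their labels, and the part of these in the range was not tested. The main models did not treat the numbers as pairs. With the replicate number as a block 10648 genes were called between clones and fibroblasts (10930 without), 1257 among clones and 1761 on day 1. Members called were then 2 on day 1, where PDGFA had an adjusted p of 0.0473, 4 in cardiomyocytes, where PDGFA had 0.0467, and 3 among clones, where PDGFRA had 0.0731.

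Leaving out each library in turn gave 10371 to 11196 calls for clones against fibroblasts (2 members each time), 1009 to 2158 among clones (2 to 4), 996 to 1595 on day 1 (0), 526 to 693 on day 2 (0), 2212 to 2727 on day 3 (1 to 2), 1789 to 1970 in endothelial cells (2), 4477 to 6885 in cardiomyocytes (2 to 3), 4663 to 7519 in neural progenitors (2 to 3), 3146 to 6076 in endothelial cells against the other lineages (1 to 2) and 0 to 3883 between the latter (0 to 4). Depth limits PDGFRB, PDGFC and PDGFD on days 1 and 2, where a library held at most 52 counts of each. It also limits PDGFA, at 40 to 66 counts in a library on day 1 and 9 to 23 on day 2.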
